A study of Mus musculus with 2 samples.

Results

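The Notch genes described here are 9 genes of mouse colonic crypt cells. They comprise the ligand genes Dll1, Dll4 and Jag1, the receptor genes Notch1 and Notch2, the nuclear factor gene Rbpj, the target genes Hes1 and Nrarp, and Atoh1, the transcription factor gene of the secretory fate. They were chosen by symbol, with no measured value in the rule, and all 9 were found among the 31053 genes of both libraries. Crypt cells from the colon of C57BL/6 mice, 4 weeks old, were profiled by 10x Genomics single-cell RNA sequencing, which counts unique molecular identifiers (UMIs) per gene and cell. The control library came from mice of genotype M14(f/f), with M14 read as Mettl14, which encodes a subunit of the methyltransferase that places N6-methyladenosine on RNA. The other library came from M14(f/f);Villin-Cre mice and is called Mettl14_cKO. Both groups carry the floxed alleles, and Villin-Cre is a recombinase transgene driven in gut epithelial cells, so that immune and stromal cells of the crypt preparation are not its target. Cells of 3 mice were pooled per genotype, giving 1 library each. No test between genotypes was therefore possible, and "higher" and "lower" compare these libraries. Levels are UMIs summed over the cells of a class, per 1000000 UMIs of that class (CPM), with exact 95% intervals that cover counting error only.

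Notch signalling acts between touching cells. A ligand of the Delta or Jagged family on the surface of a cell binds a Notch receptor on its neighbour, the receptor is cut, and its intracellular part enters the nucleus and joins the DNA-binding protein Rbpj to switch on targets such as Hes1 and Nrarp. Hes1 is a repressor of Atoh1, so a gut progenitor with active Notch takes the absorptive path, while a progenitor that keeps Atoh1 makes ligands and becomes a secretory cell such as a goblet or enteroendocrine cell. Nrarp is a target that limits the Notch complex in turn. This exchange, called lateral inhibition, is known to set the balance of secretory and absorptive cells along the crypt.

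The DNA before the start of Atoh1 and of Nrarp is shown because Atoh1 is the gene that Hes1 is known to repress and Nrarp is the target that differed most between the libraries on average. Both sequences are the 250 bases before the gene start in RefSeq's promoter table (GRCm38.p6), each on the plus strand, at chr6:64728875-64729124 for Atoh1 and chr2:25180508-25180757 for Nrarp. Capitals mark matches on either strand to CACGCG, a Hes-type class C site, in Atoh1 and to CACNAG, the Hes-type N-box, in Nrarp.
Atoh1: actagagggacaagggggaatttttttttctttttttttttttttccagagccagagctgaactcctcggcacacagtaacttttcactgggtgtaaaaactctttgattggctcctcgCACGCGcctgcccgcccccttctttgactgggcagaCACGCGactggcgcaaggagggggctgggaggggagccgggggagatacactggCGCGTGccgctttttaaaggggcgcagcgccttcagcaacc
Nrarp: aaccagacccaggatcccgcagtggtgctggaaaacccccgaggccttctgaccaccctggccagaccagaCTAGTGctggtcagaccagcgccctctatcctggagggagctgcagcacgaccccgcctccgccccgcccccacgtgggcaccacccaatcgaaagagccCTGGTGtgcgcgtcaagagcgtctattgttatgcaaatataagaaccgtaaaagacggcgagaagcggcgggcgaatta
Atoh1 held CACGCG 3 times, at 131, 95 and 41 bases before the start. Over all 32851 windows of that length in the table, 7.62% held the motif at least 1 time and 0.225% at least 3 times. Among the 8 members with an entry 5 held it: Notch2, Dll1, Dll4, Jag1 and Atoh1. Hes1 had no entry, so it was not searched for this or any other motif given here. Nrarp held CACNAG at 179 and 79 bases before the start, and 36.7% of all windows held it, with Notch1, Notch2 and Dll4 among the members. TGGGAA, the core letters bound by Rbpj, was found in 21.6% of windows and among the members in Rbpj alone. CAGCTG, an E-box of the kind that Atoh1 binds, was found in 13% of windows and in Dll1 and Jag1. A match is a description of the letters and not of binding, which was not measured.

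By GENCODE M21 on GRCm38, used here for position because no source used here names the build of the deposited counts, the ligand genes lie at chr17:15367354-15376872 (Dll1, ENSMUSG00000014773), chr2:119325784-119335962 (Dll4, ENSMUSG00000027314), chr2:137081456-137116644 (Jag1, ENSMUSG00000027276), and the receptor genes at chr2:26457903-26516663 (Notch1, ENSMUSG00000026923) and chr3:98013527-98150361 (Notch2, ENSMUSG00000027878). The others lie at chr5:53466152-53657362 (Rbpj, ENSMUSG00000039191), chr16:30064384-30067796 (Hes1, ENSMUSG00000022528), chr2:25180758-25183339 (Nrarp, ENSMUSG00000078202), chr6:64729125-64731245 (Atoh1, ENSMUSG00000073043). Dll1, Jag1 and Notch1 are on the minus strand and the rest on the plus strand. Counts are over whole genes, and a UMI is not assigned to an exon.

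The libraries differed in depth and makeup. The control held 10181 barcodes with a median of 9085 UMIs and the Mettl14_cKO library 9225 with a median of 3872, and 33 barcodes occurred in both. After filtering, 8706 control and 6053 Mettl14_cKO cells were epithelial-like. Clusters were named from marker genes, none of them a Notch gene or Atoh1, and the names end in "-like" for that reason. The classes used are cycling-like cells as progenitors (2164 and 1310 cells), goblet-like (3312 and 2452), enteroendocrine-like (222 and 386) and tuft-like cells (43 and 44) as secretory cells, and colonocyte-like cells (1599 and 527) as absorptive cells. No cluster could be named stem-like, and 1366 and 1334 epithelial cells stayed unnamed. Different clusters held most of a class in each library: clusters 3, 4 and 14 against 8 and 14 for cycling-like, 0, 2 and 6 against 1, 5 and 18 for goblet-like, and 7 and 10 against 15 for colonocyte-like cells. Enteroendocrine-like cells lay in clusters 16 and 24 of both. Sex and genotype cannot be told apart, since Xist, which coats the silenced X chromosome, was at 0.0644 CPM in control and 312 CPM in Mettl14_cKO cells, and 4 Y-linked genes summed to 103 and 0.07 CPM. Mettl14 itself had 4.76 and 5.03 CPM. Which exons are floxed is not stated in the labels, and a tag outside the deleted part checks nothing. T or NK-like cells (356 and 393) serve as the level of free RNA for Atoh1, Dll1 and Dll4. They use Notch signalling themselves, so for the receptors, Rbpj and the targets their level is given as a level only.

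Averaged over 4 classes (goblet-like, enteroendocrine-like, cycling-like and colonocyte-like), 6 of the 9 genes were at least 1.5-fold lower in the Mettl14_cKO library and none was 1.5-fold higher. Over all 12995 genes with enough UMIs, 11% were that much lower and 15.9% that much higher. On the log2(CPM + 1) scale the mean differences were -1.36 for Nrarp, -1.03 for Notch1, -0.86 for Dll1, -0.80 for Dll4, -0.73 for Atoh1 and -0.68 for Hes1. The other members lay nearer to 0, with -0.43 for Jag1, 0.18 for Rbpj and 0.26 for Notch2. The median of the 9 was -0.73, beside 0.03 over all genes. The Atoh1 mean hides unlike classes: it was lower in cycling-like and enteroendocrine-like cells, close to equal in goblet-like cells and higher in colonocyte-like cells. The plot of log2 ratios by class shows this spread.

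**Figure D1:**
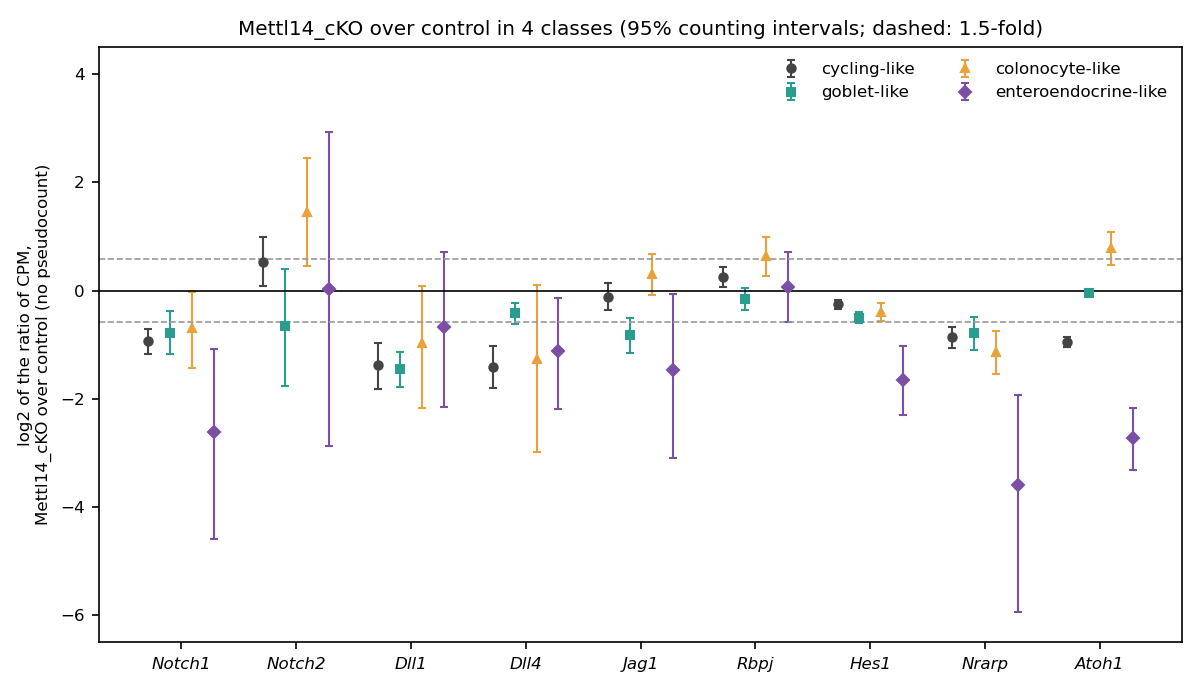
The log2 ratio of CPM, Mettl14_cKO over control and with no pseudocount, is plotted for each of the 9 genes in 4 classes, with 95% counting intervals as bars and dashed lines at 1.5-fold. Notch1, Nrarp, Hes1, Dll1 and Dll4 lie below 0 in each class, Rbpj and Notch2 lie near or above 0 in most, and Atoh1 spans from 6.62-fold lower in enteroendocrine-like to 1.71-fold higher in colonocyte-like cells.

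By class the members divided as follows. In cycling-like cells 5 of 9 were at least 1.5-fold lower (Notch1, Dll1, Dll4, Nrarp and Atoh1) and 0 higher, against 13.1% and 15.8% of all genes. In goblet-like cells 4 of 9 were lower (Notch1, Dll1, Jag1 and Nrarp) and 0 higher, against 15.7% and 14.6%. In colonocyte-like cells 3 were lower (Dll1, Dll4 and Nrarp) and 2 higher (Notch2 and Atoh1), against 15% and 24.8%. In enteroendocrine-like cells, where Notch2 had too few UMIs to count, 6 of 8 were lower (Notch1, Dll4, Jag1, Hes1, Nrarp and Atoh1) and 0 higher, against 16.6% and 26.7%. The median over the members was -0.81, -0.49, -0.39 and -1.40 on the log2 scale in that order of classes, and over all genes -0.01, -0.05, 0.07 and 0.14. These calls used the log2(CPM + 1) scale, on which Nrarp alone was at least 1.5-fold lower in all 4 classes. Notch1, Dll1, Dll4 and Hes1 were also below 0 in each class. The colonocyte-like Notch1 value, -0.54, fell short of the call. Ratios of CPM given below have no pseudocount, and by them Notch1 passed 1.5-fold in colonocyte-like cells too.

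Among the ligands, Dll4, which in the gut is made by cells entering the secretory path, was higher in goblet-like than in cycling-like and colonocyte-like cells. In the control it had 14.4 CPM (13.1 to 15.6) in goblet-like, 13.8 CPM (9.25 to 19.8) in enteroendocrine-like, 8.11 CPM (7.2 to 9.09) in cycling-like and 1.5 CPM (1.03 to 2.11) in colonocyte-like cells. The goblet-like and enteroendocrine-like intervals overlap, and colonocyte-like cells lie apart at the bottom. The Mettl14_cKO levels were 10.7 CPM (9.63 to 11.9), 6.34 CPM (3.38 to 10.8), 3.06 CPM (2.4 to 3.85) and 0.624 CPM (0.203 to 1.46) in the same order. Goblet-like cells thus held 9.55 (6.72 to 14) times the colonocyte-like level in the control and 17.2 (7.29 to 53.2) times in the Mettl14_cKO library. Between the libraries Dll4 was 2.65-fold lower (2.04 to 3.47) in cycling-like cells, 1.34-fold lower (1.17 to 1.54) in goblet-like cells and 2.18-fold lower (1.1 to 4.57) in enteroendocrine-like cells. The T or NK-like level of Dll4 came from 1 and 2 UMIs, 1.37 and 2.0 CPM, and has intervals that lie below the goblet-like intervals of both libraries and overlap the cycling-like ones.

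Dll1, the other Delta ligand of secretory progenitors, had 8.64 CPM (7.71 to 9.64) in goblet-like, 6.45 CPM (5.65 to 7.33) in cycling-like, 6.19 CPM (3.3 to 10.6) in enteroendocrine-like and 2.18 CPM (1.61 to 2.9) in colonocyte-like cells of the control. The Mettl14_cKO library had 3.16 CPM (2.59 to 3.81), 2.47 CPM (1.88 to 3.19), 3.9 CPM (1.68 to 7.69) and 1.12 CPM (0.513 to 2.13) in that order. The goblet-like and cycling-like intervals of the libraries do not overlap, and Dll1 was 2.74-fold lower (2.19 to 3.44) and 2.61-fold lower (1.95 to 3.53). In enteroendocrine-like and colonocyte-like cells the intervals of the ratio include 1, at 0.63 (0.226 to 1.64) and 0.514 (0.222 to 1.06). Among T or NK-like cells Dll1 had 2.74 CPM (0.332 to 9.9) and 3.01 CPM (0.62 to 8.78) from 2 and 3 UMIs. Both intervals reach the level of every class named here. Without thinning, 0.562% (0.0681 to 2.01) and 0.763% (0.158 to 2.21) of T or NK-like cells held a Dll1 UMI, control first. Goblet-like shares were 8.42% (7.5 to 9.42) and 4.12% (3.37 to 4.98), and cycling-like shares 8.78% (7.62 to 10.1) and 4.12% (3.11 to 5.34). These lie above the T or NK-like intervals, whereas enteroendocrine-like and colonocyte-like intervals do so in the control only. T or NK-like cells were shallower (medians of 1624.5 and 1939 UMIs), and thinned shares had overlapping intervals. The part of free RNA in Dll1 was not tested.

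Jag1, a ligand of the Jagged family, was lower in goblet-like than in colonocyte-like cells. Its control levels were 9.66 CPM (8.67 to 10.7) in cycling-like, 8.83 CPM (7.63 to 10.2) in colonocyte-like, 8.1 CPM (4.72 to 13) in enteroendocrine-like and 6.26 CPM (5.47 to 7.12) in goblet-like cells. The Mettl14_cKO levels were 8.93 CPM (7.77 to 10.2), 10.9 CPM (8.69 to 13.4), 2.93 CPM (1.07 to 6.37) and 3.54 CPM (2.93 to 4.23). Colonocyte-like cells held 1.41 (1.16 to 1.72) times the goblet-like level in the control and 3.07 (2.3 to 4.08) times in the Mettl14_cKO library, although a lenient cell filter turned the latter direction. Between the libraries Jag1 was 1.77-fold lower (1.41 to 2.22) in goblet-like and 2.77-fold lower (1.04 to 8.58) in enteroendocrine-like cells. In cycling-like cells the ratio was 0.925 (0.776 to 1.1) and in colonocyte-like cells 1.23 (0.943 to 1.59), both with 1 inside the interval. The colonocyte-like difference changed direction under 8 of 14 other settings. Among T or NK-like cells Jag1 had 2 and 23 UMIs, or 2.74 and 23 CPM.

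**Figure D2:**
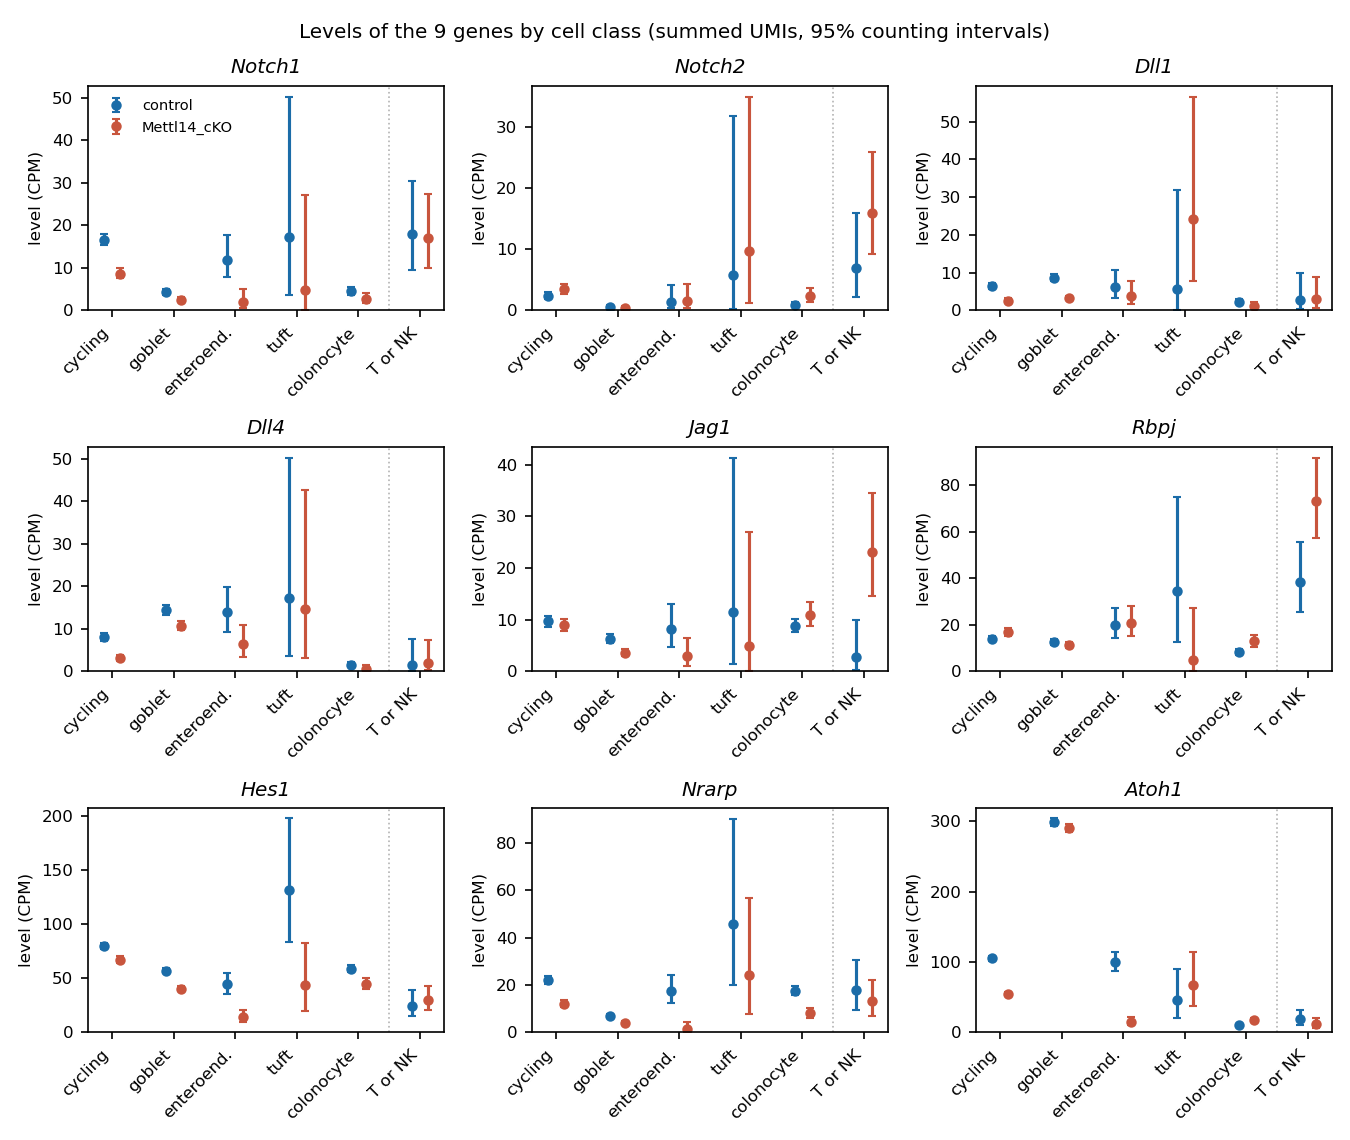
Each panel plots the level of 1 gene in CPM, on a linear axis from 0, in 5 epithelial classes and in T or NK-like cells, with the control in blue, the Mettl14_cKO library in red and 95% counting intervals as bars. Atoh1, Dll4 and Dll1 are higher in goblet-like than in colonocyte-like cells, Notch1 and Nrarp are higher in cycling-like than in goblet-like cells, and the tuft-like intervals are wide because each library had 43 or 44 such cells.

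Of the receptors, Notch1 was higher in cycling-like than in goblet-like and colonocyte-like cells. The control had 16.6 CPM (15.3 to 18) in cycling-like, 11.9 CPM (7.71 to 17.6) in enteroendocrine-like, 4.46 CPM (3.62 to 5.44) in colonocyte-like and 4.29 CPM (3.65 to 5.02) in goblet-like cells. The Mettl14_cKO library had 8.64 CPM (7.5 to 9.9), 1.95 CPM (0.531 to 4.99), 2.74 CPM (1.72 to 4.16) and 2.51 CPM (2.0 to 3.1). Within each library cycling-like cells stood above goblet-like cells, 3.86 (3.23 to 4.63) times in the control and 3.45 (2.66 to 4.49) times in the Mettl14_cKO library, and the colonocyte-like and goblet-like levels could not be separated. Between the libraries Notch1 was 1.92-fold lower (1.63 to 2.26) in cycling-like, 1.71-fold lower (1.31 to 2.26) in goblet-like and 1.63-fold lower (1.02 to 2.71) in colonocyte-like cells. In enteroendocrine-like cells it was 6.11-fold lower (2.11 to 24.1), from 25 against 4 UMIs. The goblet-like difference was near 0 in 2 other settings (0.038 on the log2 scale with strict cell filters and 0.0047 with each library clustered on its own). Notch1 of T or NK-like cells was 17.8 and 17 CPM, with overlapping intervals.

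Notch2, the second receptor gene of the crypt epithelium, was sparse. It had 2.38 CPM (1.9 to 2.94) in cycling-like, 0.865 CPM (0.521 to 1.35) in colonocyte-like and 0.601 CPM (0.377 to 0.91) in goblet-like cells of the control, from 86, 19 and 22 UMIs. Its Mettl14_cKO levels were 3.44 CPM (2.73 to 4.27), 2.37 CPM (1.43 to 3.7) and 0.383 CPM (0.204 to 0.656), from 82, 19 and 13 UMIs. Both libraries thus had more in cycling-like than in goblet-like cells, 3.96 (2.45 to 6.64) and 8.97 (4.96 to 17.6) times. Unlike Notch1, Notch2 was higher in the Mettl14_cKO library among cycling-like cells, 1.45-fold higher (1.05 to 1.98), and in colonocyte-like cells, 2.74-fold higher (1.37 to 5.47). The colonocyte-like difference could not be assessed at equal depth, since 3 control and 1 Mettl14_cKO cells held a Notch2 UMI at 2000 UMIs per cell. The cycling-like direction turned when the T or NK-like level was subtracted. T or NK-like cells had 6.85 and 16 CPM.

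Rbpj, which carries the Notch signal onto DNA and without it acts in repression, was spread over the classes and was 1.5-fold lower in the Mettl14_cKO library in none of the 4 classes averaged above. Cycling-like cells had 14 CPM (12.8 to 15.3) in the control against 16.7 CPM (15.1 to 18.4) in the other library, giving a ratio of 1.19 (1.04 to 1.36). Goblet-like cells had 12.5 and 11.2 CPM and enteroendocrine-like cells 20.009 and 21 CPM, with 1 inside the interval of both ratios. Colonocyte-like cells had 8.28 CPM (7.12 to 9.58) and 12.8 CPM (10.5 to 15.6), 1.55-fold higher (1.21 to 1.99), a direction that turned with thinning to 2000 UMIs. In T or NK-like cells, which had the highest level of the classes described, it was 38.4 CPM (25.5 to 55.4) and 73.1 CPM (57.3 to 91.9). Subtracting that level turned the sign in cycling-like, colonocyte-like and enteroendocrine-like cells, and the strict cell filter and median-ratio scaling turned it in cycling-like and enteroendocrine-like cells in that order.

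Of the targets, Hes1, the repressor that links Notch to Atoh1, was lower in the Mettl14_cKO library in each class, by a little in cycling-like cells and by most in enteroendocrine-like cells. Cycling-like cells had 79.8 CPM (76.9 to 82.7) in the control and 66.8 CPM (63.5 to 70.1) in the Mettl14_cKO library, 1.19-fold lower (1.12 to 1.27). Goblet-like cells had 56.8 CPM (54.4 to 59.3) and 40.1 CPM (38 to 42.3), 1.42-fold lower (1.32 to 1.52). Colonocyte-like cells had 58.8 CPM (55.6 to 62.1) and 44.8 CPM (40.3 to 49.7), 1.31-fold lower (1.17 to 1.48). These pairs of intervals do not overlap, although clustering at a resolution of 2 turned the cycling-like sign to 0.06 on the log2 scale. Enteroendocrine-like cells had 44.3 CPM (35.8 to 54.3) and 14.1 CPM (9.47 to 20.3), 3.13-fold lower (2.05 to 4.93), and tuft-like cells had 132 CPM (83.5 to 198) and 43.7 CPM (19.965 to 82.9) from 23 and 9 UMIs. In both libraries cycling-like cells stood above goblet-like cells, with 1.4 (1.33 to 1.49) and 1.67 (1.55 to 1.79) times their level, and enteroendocrine-like cells came last. Colonocyte-like and goblet-like cells could not be separated in either library. T or NK-like cells had 24.7 and 30.1 CPM.

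Nrarp, the target that feeds back on the Notch complex, had the lowest mean ratio of the 9 genes. Cycling-like cells had 22 CPM (20.5 to 23.6) in the control and 12.1 CPM (10.7 to 13.6) in the Mettl14_cKO library, from 795 and 288 UMIs. Colonocyte-like cells had 17.6 CPM (15.9 to 19.4) and 7.98 CPM (6.15 to 10.2), and goblet-like cells 6.92 CPM (6.09 to 7.82) and 4.01 CPM (3.37 to 4.74). No pair of intervals overlaps, and Nrarp was 1.82-fold lower (1.59 to 2.09), 2.2-fold lower (1.69 to 2.91) and 1.72-fold lower (1.39 to 2.14) in that order. Enteroendocrine-like cells had 17.6 CPM (12.4 to 24.3) in the control, from 37 UMIs, and 1.46 CPM (0.302 to 4.27) in the other library, from 3 UMIs. That is 12.1-fold lower (3.82 to 61.1). At 2000 UMIs per cell, 5.69% (4.72 to 6.79) of control and 2.23% (1.48 to 3.23) of Mettl14_cKO cycling-like cells held a Nrarp UMI, beside 28.4% and 15.4% without thinning. Unlike Notch1, Nrarp was higher in colonocyte-like than in goblet-like cells, at 2.54 (2.16 to 2.99) and 1.99 (1.46 to 2.7) times the goblet-like level. Enteroendocrine-like cells, also secretory, held 1.003 (0.696 to 1.41) times the colonocyte-like level in the control. In the Mettl14_cKO library they held 0.183 (0.0368 to 0.56) times that level. The T or NK-like levels of Nrarp were 17.8 CPM (9.48 to 30.5) and 13 CPM (6.93 to 22.3). The sign of the difference in each class was kept under 14 other settings.

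Atoh1, which the gut needs to make goblet and enteroendocrine cells, was highest in goblet-like cells in both libraries. In the control it had 298 CPM (293 to 304) in goblet-like, 105 CPM (102 to 108) in cycling-like, 100.05 CPM (87 to 115) in enteroendocrine-like, 45.8 CPM (19.8 to 90.3) in tuft-like and 10.3 CPM (9.03 to 11.8) in colonocyte-like cells. The Mettl14_cKO library had 291 CPM (285 to 297), 54.3 CPM (51.4 to 57.3), 15.1 CPM (10.3 to 21.5), 67.9 CPM (37.1 to 114) and 17.7 CPM (14.9 to 20.9) in that order. Goblet-like cells were apart from every other class in both libraries, at 28.9 (25.3 to 33.1) and 16.4 (13.9 to 19.5) times the colonocyte-like level. The control order of neighbours was goblet-like, cycling-like, enteroendocrine-like, tuft-like and colonocyte-like, where the cycling-like and enteroendocrine-like levels did not differ beyond counting error. In the Mettl14_cKO library enteroendocrine-like cells came last, with an interval that overlaps that of colonocyte-like cells.

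Between the libraries Atoh1 was close to equal in the epithelium as a whole, at 142 CPM (140.0 to 144) in the control and 143 CPM (140.2 to 145) in the Mettl14_cKO library, and in goblet-like cells the ratio was 0.974 (0.948 to 1.0). The other classes differed: cycling-like cells were 1.93-fold lower (1.81 to 2.06), enteroendocrine-like cells 6.62-fold lower (4.52 to 9.99) and colonocyte-like cells 1.71-fold higher (1.38 to 2.12). The cycling-like direction turned with the lenient cell filter, to 0.46 on the log2 scale. Under that filter a cluster of 868 control and 42 Mettl14_cKO cells stayed unnamed and outside the cycling-like class. It was led by Retnlb and had 6 cycling markers among its 50 leading genes. Its part in the turn was not tested. At 2000 UMIs per cell an Atoh1 UMI was found in 14.4% (12.9 to 16) and 6.87% (5.5 to 8.44) of cycling-like and in 40.2% (38.4 to 42) and 36.7% (34.6 to 38.8) of goblet-like cells, control first. Without thinning these shares were 41.6% and 26.6%, and 75.5% and 67.3%. In T or NK-like cells the thinned share was 5.98% (2.44 to 11.9) and 1.65% (0.341 to 4.74), with 3.93% and 2.54% before thinning and median depths of 1624.5 and 1939 UMIs against 14404 and 14186.5 in cycling-like cells. Goblet-like and cycling-like cells of both libraries lay above that level. Colonocyte-like cells, with 1.63% (1.05 to 2.41) and 2.63% (1.41 to 4.46), and enteroendocrine-like cells, with 9.38% (5.65 to 14.4) and 2.32% (0.937 to 4.72), did not lie above it beyond counting error. By summed level, control enteroendocrine-like cells did lie above the 19.2 CPM (10.5 to 32.2) of T or NK-like cells, with their 210 UMIs held by 40 of 222 cells, while the Mettl14_cKO pair of intervals overlapped, with 11 CPM (5.5 to 19.7) in T or NK-like cells. Atoh1 of Mettl14_cKO colonocyte-like cells, at 17.7 CPM, overlapped that level in its interval, and the part of free RNA in it was not tested. Without thinning, 12.5% (9.82 to 15.7) of these cells, at a median depth of 13336 UMIs, held an Atoh1 UMI. The T or NK-like share was 2.54% (1.23 to 4.63), with the intervals apart. In the control the shares were 6.57% (5.4 to 7.89) and 3.93% (2.17 to 6.51), with overlapping intervals. The T or NK-like level was lower in the Mettl14_cKO library, while the colonocyte-like level was higher. In colonocyte-like cells with few goblet markers, as defined in the next paragraph, Atoh1 had 3.23 and 9.58 CPM and was 2.97-fold higher (2.09 to 4.21). With no doublets removed the direction was reversed (-0.23 on the log2 scale).

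The lower Atoh1 of cycling-like and enteroendocrine-like cells moved with markers of goblet cells. The 13 goblet markers summed to 26858 CPM in control and 8637 CPM in Mettl14_cKO cycling-like cells, with none of the 13 at 0. In enteroendocrine-like cells they summed to 18973 and 3303 CPM, in goblet-like cells to 79150.2 and 57755, and in colonocyte-like cells to 4157 and 3427, with 1 marker at 0 in the last. T or NK-like cells had 4452 and 1582 CPM. In an alternative chosen after the data were seen, cells of the cycling-like, colonocyte-like and enteroendocrine-like classes were kept where those markers made under 1% of UMIs. It left 1166 control and 1121 Mettl14_cKO cycling-like cells, and 173 and 376 enteroendocrine-like cells. Among cycling-like cells Atoh1 then had 13.6 and 30.041 CPM and was 2.21-fold higher (1.88 to 2.61) in the Mettl14_cKO library, the reverse of the whole class, and among enteroendocrine-like cells it had 6.37 and 9.5 CPM, from 7 and 18 UMIs, with 1 inside the interval of the ratio. The filter is not independent of Atoh1, since the marker Agr2 was the gene most like Atoh1 across clusters.

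Receptor and target genes kept their direction in the same cells. In cycling-like cells with few goblet markers Notch1 had 21.3 and 9.31 CPM, 2.29-fold lower (1.89 to 2.77), and Nrarp had 29.3 and 11.5 CPM, 2.54-fold lower (2.16 to 3.01). Hes1 had 84.2 and 69.9 CPM there, 1.2-fold lower (1.11 to 1.3). Both ligands of the Delta family were also lower, with 3.61 and 2.17 CPM for Dll1, 1.67-fold lower (1.09 to 2.57), and 4.57 and 2.12 CPM for Dll4, 2.16-fold lower (1.44 to 3.28). Jag1, whose interval over the whole class includes 1, had 12.8 and 9.31 CPM in these cells, 1.37-fold lower (1.11 to 1.69). In enteroendocrine-like cells with few goblet markers, Notch1 was 6.9-fold lower (2.23 to 28.4), Hes1 2.82-fold lower (1.62 to 5.04) and Nrarp 10.9-fold lower (3.22 to 57.7), from 16 and 4, 36 and 22, and 19 and 3 UMIs. The Dll1, Dll4 and Jag1 intervals of that class include 1. Over all enteroendocrine-like cells the 15 cycling markers summed to 2337 CPM in the control and 517 CPM in the Mettl14_cKO library, with none at 0, and their part in the values of this class was not tested. Markers of colonocytes also moved, from 2692 to 451 CPM in cycling-like cells and from 77065 to 18189 CPM in colonocyte-like cells, control first, and their part in these results was not tested.

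**Figure D3:**
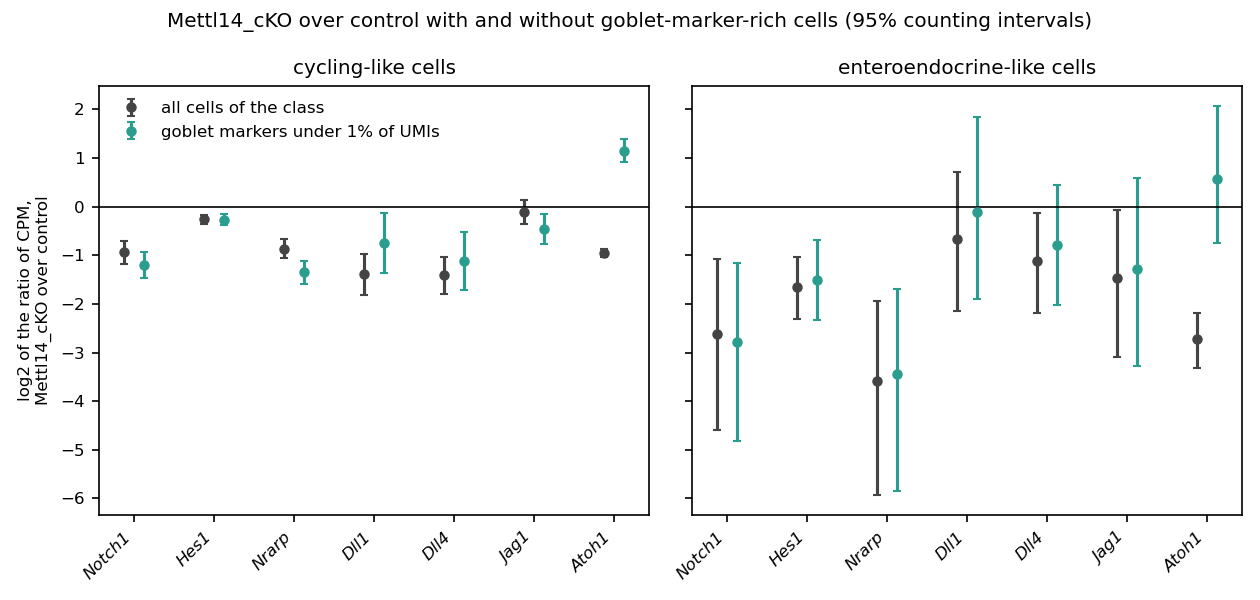
The log2 ratio of CPM, Mettl14_cKO over control, is plotted for 7 genes in all cells of the cycling-like and enteroendocrine-like classes (grey) and in cells with goblet markers under 1% of UMIs (green), with 95% counting intervals as bars. The Atoh1 point crosses 0 in both classes, while the Notch1, Hes1 and Nrarp points stay below 0 with their intervals.

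Clusters inside the classes show where these levels lie. The control's cycling-like cells fell into a cluster low in Atoh1 (cluster 3, 977 cells, 11.7 CPM (10.015 to 13.7)) and a cluster high in it (cluster 4, 962 cells, 168 CPM (163 to 174)). The first had more receptor and target, with 20.2 CPM of Notch1, 28.2 CPM of Nrarp and 12.9 CPM of Jag1, against 13.3 CPM, 17 CPM and 7.54 CPM in cluster 4. The second had more Delta ligand, with 8.38 CPM of Dll1 and 10.6 CPM of Dll4 against 3.29 CPM and 3.87 CPM. The main cycling-like cluster of the Mettl14_cKO library (cluster 8, 914 cells) lay between them in Atoh1, at 55.1 CPM (51.8 to 58.6), and below both in Notch1, at 6.51 CPM (5.4 to 7.77), and in Nrarp, at 10.8 CPM (9.34 to 12.4). It had 2.35 CPM of Dll1 and 2.56 CPM of Dll4. Clusters are not replicates.

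Clusters 3, 4 and 14 held cells of both libraries, and the lower Notch1 of the cycling-like class was not found in each of them. The 64 Mettl14_cKO cells of cluster 3 had 21.8 CPM (15.9 to 29.3) of Notch1 against 20.2 CPM (17.9 to 22.7) in the control, and 89.8 CPM (77.2 to 104) of Hes1 against 83.5 CPM (78.8 to 88.4), and both pairs of intervals overlap. Nrarp there had 18.9 CPM (13.3 to 25.9) against 28.2 CPM (25.5 to 31.1), and Atoh1 25.8 CPM (19.3 to 33.8) against 11.7 CPM (10.015 to 13.7). The 46 Mettl14_cKO cells of cluster 4 had 8.06 CPM (4.41 to 13.5) of Notch1 against 13.3 CPM (11.8 to 14.9) in the control, 10.9 CPM (6.59 to 17.1) of Nrarp against 17 CPM (15.3 to 18.8), with overlapping intervals, and 55.8 CPM (45.3 to 68.1) of Hes1 against 76.4 CPM (72.7 to 80.2), with intervals apart. Atoh1 was lower in those Mettl14_cKO cells, at 81.8 CPM (68.9 to 96.4) against 168 CPM (163 to 174), also with intervals apart. Cluster 14, led by histone genes and with no cycling marker among its 10 leading genes, held 224 control and 286 Mettl14_cKO cells. Its control cells were shallow, with a median of 2150.5 UMIs against 3310.5 in the Mettl14_cKO library. Notch1 had 46 CPM (31.5 to 65) in the control and 19.3 CPM (12.6 to 28.3) in the Mettl14_cKO library, and Nrarp had 51.8 CPM (36.3 to 71.7) and 21.5 CPM (14.4 to 30.9). Both pairs of intervals are apart. The Hes1 intervals overlap, with 109 CPM (86.1 to 137) and 116 CPM (98.4 to 136), and Atoh1 had 27.3 CPM (16.4 to 42.7) and 50.5 CPM (39.2 to 64). In the enteroendocrine-like cluster 16 (led by Chgb, Chga and Tph1, 153 and 296 cells) Hes1 had 56.7 CPM (44.5 to 71.1) and 12 CPM (6.88 to 19.5), and Atoh1 106 CPM (88.8 to 125) and 18 CPM (11.6 to 26.9). Cluster 24, led by Pyy and Gcg (69 and 90 cells), had 90.8 CPM (71 to 114) and 9.71 CPM (3.9 to 20.004) of Atoh1 and 24 CPM (14.4 to 37.4) and 18 CPM (9.6 to 30.8) of Hes1, so the Hes1 intervals overlap there and the Atoh1 intervals do not.

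Across the 32 points given by epithelial clusters of each library with at least 30 cells, Atoh1 and Dll4 varied together (Pearson r = 0.717 on log2(CPM + 1)), as did Atoh1 and Dll1 (0.507). Receptor and targets made another group, with r = 0.75 for Hes1 and Nrarp, 0.735 for Notch1 and Nrarp, and 0.707 for Notch1 and Hes1. Jag1 lay with that group, at 0.706 with Notch1 and 0.702 with Nrarp, and against Atoh1, at -0.435. Atoh1 and Hes1, the pair of the textbook switch, had r = -0.0884, and Atoh1 and Notch1 -0.247. Rbpj followed none of the members, with r between -0.0822 and 0.0569. These points share their libraries, their depth and the clustering, so the coefficients are descriptions.

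**Figure D4:**
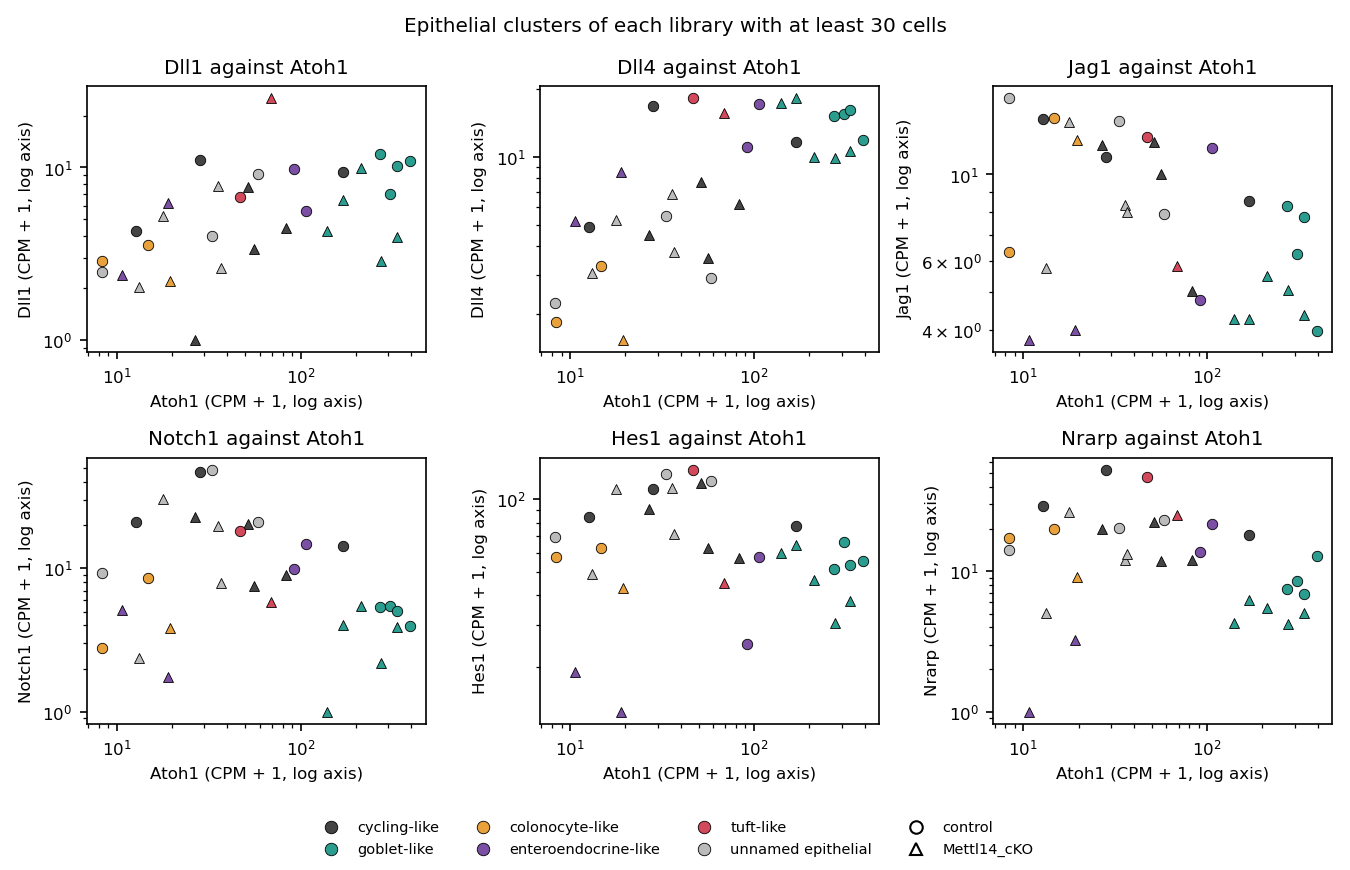
Each point is an epithelial cluster of 1 library with at least 30 cells, placed by its Atoh1 level and the level of a ligand, receptor or target (CPM + 1, both axes logarithmic), coloured by class, with circles for the control and triangles for the Mettl14_cKO library. Goblet-like clusters lie toward the right in each panel, mostly high in Dll4 and toward the low end in Jag1, Notch1 and Nrarp. They are not apart from the rest: control cycling-like cluster 4, at 168 CPM of Atoh1, lies right of the Mettl14_cKO cells of goblet-like cluster 2, at 139 CPM. Mettl14_cKO enteroendocrine-like clusters also lie low in Jag1, Notch1 and Nrarp.

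The genes most like each member over those points were taken from 11316 genes with at least 10 CPM in a point. For Atoh1 they were Agr2 (r = 0.942), Foxa3 (0.94) and Slc12a8 (0.922). For Dll4 they were Kit (0.836), Ano7 (0.834) and Rap1gap (0.833), and for Dll1 Vps33b (0.722), Pawr (0.721) and Kit (0.715). Kit, a receptor tyrosine kinase gene, was thus named for both Delta ligands, and its ligand gene Kitl was named for Jag1 (0.816), with Dlat (0.819) and Mrpl21 (0.807). Notch1 was most like Rad50 (0.915), Pfdn6 (0.911) and Ddx46 (0.899), and Notch2 like Zc3h15 (0.816), Sdc4 (0.804) and Pard6g (0.796). Hes1 was most like Zfp36l2 (0.853), the intestinal homeobox gene Cdx1 (0.852) and Stil (0.842). Nrarp was most like the cell division gene Kif23 (0.858), Ndufs6 (0.842) and Sass6 (0.839). Rbpj was most like Akap11 (0.852), Timm29 (0.844) and Patj (0.829).

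Single cells of the cycling-like class were divided by whether they held an Atoh1 UMI. They are the cells of the clusters above, so the division adds no independent data. In the control 901 cycling-like cells held an Atoh1 UMI and 1263 did not, with median depths of 21631 and 9725 UMIs, so a cell counted as without Atoh1 may have been too shallow to show it. Dll4 had 11 CPM in cells with and 4.0 CPM in cells without an Atoh1 UMI, a ratio of 2.76 (2.07 to 3.73), and Dll1 had 9.09 CPM in cells with and 2.73 CPM in cells without, a ratio of 3.33 (2.36 to 4.78). Both Delta ligands were thus higher in the Atoh1 cells, whereas Jag1 was lower in them, at a ratio of 0.588 (0.473 to 0.729). Nrarp had 17 CPM in cells with and 29 CPM in cells without, a ratio of 0.588 (0.51 to 0.678). Notch1 had a ratio of 0.685 (0.581 to 0.806) and Notch2 of 0.442 (0.277 to 0.696). Hes1 differed little, with 76.3 CPM in cells with and 84.6 CPM in cells without, a ratio of 0.902 (0.838 to 0.972), and Rbpj had a ratio of 1.07 (0.895 to 1.29).

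In the Mettl14_cKO library 348 cycling-like cells held an Atoh1 UMI and 962 did not, at median depths of 22526 and 11767.5 UMIs. Dll4 again was higher in the Atoh1 cells, with 5.45 CPM in cells with and 1.62 CPM in cells without, a ratio of 3.37 (2.03 to 5.74). The Dll1 ratio was 1.6 (0.924 to 2.75), from 29 and 30 UMIs, and its interval includes 1. Hes1 stood further from 1 than in the control, with 53.8 CPM in cells with and 74.6 CPM in cells without, a ratio of 0.721 (0.646 to 0.803). Nrarp and Notch1 stood nearer to 1, at 0.838 (0.649 to 1.08) and 0.831 (0.613 to 1.12). The Hes1 intervals of the libraries do not overlap, and those of Nrarp overlap narrowly. Among cycling-like cells with few goblet markers the Nrarp ratios were 0.726 for the control and 0.623 for the Mettl14_cKO library, so the order of the libraries was not kept for Nrarp.

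Cells were also divided by a ligand or by Notch1. Control cycling-like cells with a Dll4 UMI (242 cells) had 16.4 CPM of Nrarp against 23.1 CPM in the other 1922, a ratio of 0.71 (0.569 to 0.878), and those with a Dll1 UMI (190 cells) a ratio of 0.677 (0.525 to 0.862). Their Hes1 ratios were 0.966 (0.873 to 1.07) and 0.943 (0.842 to 1.05), both with 1 inside the interval. Among Mettl14_cKO cells the 64 cycling-like cells with Dll4 had a Nrarp ratio of 1.05 (0.646 to 1.62) and a Hes1 ratio of 0.574 (0.444 to 0.731). Jag1 behaved otherwise, with Nrarp ratios of 1.06 (0.884 to 1.26) in 298 control and 1.71 (1.33 to 2.2) in 164 Mettl14_cKO cells. Cells with a Notch1 UMI, the receptor side, had more Hes1, at ratios of 1.15 (1.07 to 1.25) (478 control cells) and 1.28 (1.14 to 1.44) (165 Mettl14_cKO cells). Their Nrarp ratios were 0.915 (0.78 to 1.07) and 1.07 (0.794 to 1.43), with 1 inside both intervals. Control cells with a Notch1 UMI had a median of 20389 UMIs and those without 13137.5. Cell by cell the Pearson r of scaled levels between Atoh1 and the other members lay between -0.119 for Hes1 in the Mettl14_cKO library and 0.187 for Dll1 in the control, over 1310 and 2164 cycling-like cells. In counts this sparse such values are weak.

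At an equal depth of 2000 UMIs few control cycling-like cells held both genes of a pair. Atoh1 and Dll1 were found together in 7 cells, against 2.88 from the product of their shares, and Atoh1 and Dll4 in 8 against 4.46. Atoh1 and Nrarp were found together in 11 against 16.6, and Atoh1 and Notch1 in 8 against 13. The directions are those of the unthinned sums, at counts too small to be precise.

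In goblet-like cells, which have already taken the secretory path, the control ratios lay nearer to 1. With against without an Atoh1 UMI (2501 and 811 cells), the ratios were 1.01 (0.884 to 1.15) for Hes1, 1.02 (0.789 to 1.35) for Dll4 and 0.873 (0.611 to 1.28) for Nrarp, each with 1 inside its interval. In the Mettl14_cKO library (1649 and 803 cells) Hes1 had 37.5 CPM in cells with and 60.5 CPM in cells without, a ratio of 0.62 (0.538 to 0.716), and Nrarp a ratio of 0.545 (0.353 to 0.871). Dll1 and Dll4 were lower too in the Atoh1 cells of that library, at 0.561 (0.342 to 0.963) and 0.692 (0.52 to 0.935). The Mettl14_cKO goblet-like cells with Atoh1 had a median of 17689 UMIs and those without 3004, and they lie in clusters of unlike depth (cluster 1 at a median of 3166 and cluster 5 at 20918 UMIs). Hes1 had 63.3 CPM in cluster 1 and 36.7 CPM in cluster 5. The part of depth in this result was not tested.

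**Figure D5:**
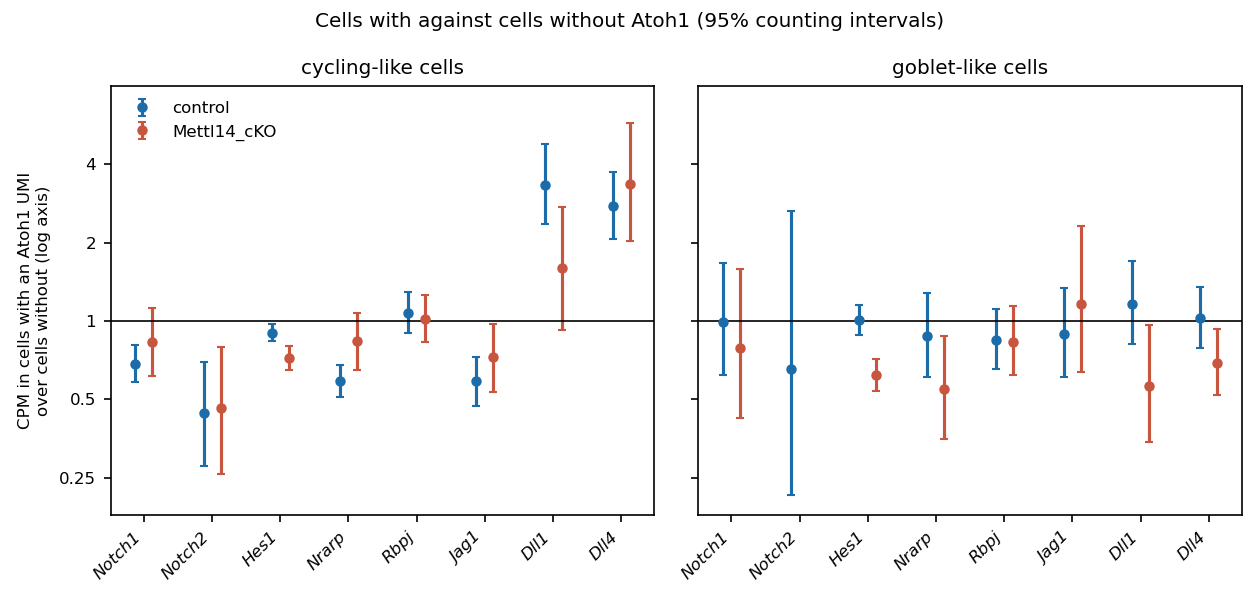
The CPM of each gene in cells with an Atoh1 UMI is divided by its CPM in cells without (log axis), for cycling-like and goblet-like cells, with the control in blue, the Mettl14_cKO library in red and 95% counting intervals as bars. In cycling-like cells Dll4 lies above 1 and Jag1 and Notch2 below 1 in both libraries. In goblet-like cells the control points have 1 inside their intervals, and Notch2 of the Mettl14_cKO library is not drawn because it had under 20 UMIs.

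Most other genes of the pathway differed by less than 1.5-fold. Of 51 other Notch pathway genes, 41 had enough UMIs, and of these 1 was at least 1.5-fold lower in the Mettl14_cKO library on the 4-class mean, 6 were higher and 34 lay between, with a median of 0.11 on the log2 scale beside 0.03 over all genes. The shares over all genes were 11% lower and 15.9% higher, and 6 of 41 is near the latter, so the genes named next are a description. The list covers receptors, ligands, ligand endocytosis, receptor glycosylation, proteases, the nuclear complex and targets, and was written with earlier results of these data known. Jag2, the second Jagged ligand, had the highest mean difference, 1.40, and among goblet-like cells 0.656 CPM in the control and 4.93 CPM in the Mettl14_cKO library, 7.51-fold higher (4.88 to 12). In enteroendocrine-like cells Jag2 had 3.33 and 18 CPM, from 7 and 37 UMIs. In goblet-like cells Jag2 was thus higher while Jag1, Dll1 and Dll4 were lower. Pofut1, which adds the fucose that Notch receptors need, followed at 1.10, with 7.52 and 18.4 CPM among goblet-like cells, 2.45-fold higher (2.12 to 2.84), and was higher in the other classes too.

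Furin, the protease that cuts the Notch precursor, had a mean difference of 1.03, with 8.97 and 26.6 CPM in colonocyte-like cells, 2.96-fold higher (2.43 to 3.62), and T or NK-like cells had 34.3 and 67.1 CPM. Neurl1a, an E3 ligase of the Neuralized family that acts on ligands, had 0.95, with 9 and 39 UMIs in enteroendocrine-like cells, 4.44-fold higher (2.11 to 10.4). The other genes of the 6, named here after their values were seen, were Psen2, a catalytic subunit of gamma-secretase, and Hes6. At the low end Neurl3, of the same family as Neurl1a, had -0.78, with 66.5 and 27.5 CPM across goblet-like cells, which is 2.42-fold lower (2.24 to 2.61). It was also lower in T or NK-like cells, at 260.3 and 139 CPM. Aph1b, a gamma-secretase subunit, had -0.57, and in colonocyte-like cells 7.1 and 2.74 CPM, 2.59-fold lower (1.65 to 4.25). Dll3, a Delta family member that does not activate Notch in its neighbours, had -0.42, with 31 and 2 UMIs in goblet-like cells. Dlk1, a Delta-like protein, had -0.38, with 197 and 128 CPM across goblet-like cells, which is 1.54-fold lower (1.48 to 1.6).

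Genes of the secretory fate downstream of or beside Atoh1 went both ways. Of 15 such genes 13 had enough UMIs, 5 were at least 1.5-fold lower in the Mettl14_cKO library on the 4-class mean and 4 higher, with a median of -0.15 on the log2 scale. Over all genes 11% were lower and 15.9% higher by that much. Spdef, the goblet cell factor that acts after Atoh1, was 1.55-fold lower (1.5 to 1.59) in goblet-like cells, with 348 CPM in the control and 225 CPM in the Mettl14_cKO library, where Atoh1 itself was close to equal. In cycling-like, enteroendocrine-like and colonocyte-like cells Spdef moved as Atoh1 did, at 1.95-fold lower (1.85 to 2.06), 5.15-fold lower (3.73 to 7.24) and 2.25-fold higher (1.83 to 2.76). Spdef is also a goblet marker of the list used above. Gfi1, which secretory progenitors use to hold off the enteroendocrine programme, had 6.64 and 2.05 CPM across cycling-like cells, 3.23-fold lower (2.37 to 4.49), and was 1.16-fold lower (1.03 to 1.3) across goblet-like cells. Foxa2, named here after its value was seen, was the fifth gene on the lower side.

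Creb3l4 and Creb3l1, factors of the secretory apparatus, were the lowest of these genes, with mean differences of -2.00 and -0.85. In goblet-like cells Creb3l4 had 174 and 54.6 CPM, 3.19-fold lower (3.02 to 3.36), and Creb3l1 261 and 102 CPM, 2.55-fold lower (2.45 to 2.65). The highest was Sox4, a factor linked to tuft and enteroendocrine differentiation, at 1.47, with 96.3 and 179 CPM across cycling-like cells, 1.86-fold higher (1.78 to 1.95). Goblet-like cells had 24.9 and 71.9 CPM of Sox4. Bhlha15, which builds the secretory apparatus of mature cells, had 2.43 and 11.6 CPM across goblet-like cells, 4.76-fold higher (3.78 to 6.07). The enteroendocrine factors Neurod1 and Insm1 were higher in enteroendocrine-like cells, Neurod1 4.03-fold higher (3.63 to 4.48) and Insm1 1.85-fold higher (1.64 to 2.09), in the class where Hes1, Nrarp and Atoh1 were lowest against the control. Pax4 of the same list, named here after its value was seen, was lower in that class, at -2.23 on the log2 scale from 94 and 18 UMIs. Of the 12 listed genes with enough UMIs there, 5 were at least 1.5-fold lower and 5 higher. Over all genes of that class 16.6% were lower and 26.7% higher. Neurod1 is an enteroendocrine marker of the list that named the class, and those 13 markers summed to 66638 CPM in the control and 127556 CPM in the Mettl14_cKO library.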

How the data were processed

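Single-cell libraries of 1 control and 1 Mettl14_cKO pool were analysed, each from 3 mice. The values are UMI counts per gene and cell, deposited by the authors. Per the submitters' processing notes they were made with Cell Ranger 3.0.0 and handled in Seurat 3, while the file headers name Cell Ranger 3.1.0. The genome build of the alignment is not stated in these sources. Deposited barcodes had at least 500 UMIs, a floor that bounds the shallow cells.

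Barcodes entered with 500 or more genes and less than 25% of UMIs from mitochondrial genes, and 77 control and 53 Mettl14_cKO cells were removed as doublets at a Scrublet score of 0.25 (0.841% and 0.744% of cells). This left 9077 and 7072 cells with medians of 10037 and 6253.5 UMIs. Counts were scaled to 10000 per cell, and both libraries were clustered together (scanpy 1.11.5, Python 3.11.15, 2000 variable genes, 30 principal components, 15 neighbours, Leiden resolution 1). Neither the 9 members, the other listed Notch genes, Xist nor Y-linked genes entered the variable genes. A cluster was named where at least 3 markers of a type were among its 50 leading genes, and epithelial names needed an Epcam level of at least 50% of the library's. These naming thresholds were set after the data were seen. The members, gene lists and markers were chosen with earlier results of these data known.

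UMIs were summed by class and divided by the class total. Ratios have exact conditional binomial intervals, shares of cells exact binomial (Clopper-Pearson) intervals and CPM exact Poisson intervals (scipy 1.17.1), all at 95% and for counting error only. Log2 ratios used a pseudocount of 1 CPM. A gene counted in a class with at least 20 UMIs over both libraries, and was called higher or lower from 1.5-fold, with no test. The means cover 4 classes with at least 100 cells in each library. All 9 members are described. From the lists of 51 other Notch genes and 15 secretory fate genes the 4 highest and 4 lowest means were named, and for each member the 3 genes with the highest r over clusters. In thinned comparisons each cell was drawn down to 2000 UMIs (seed 1), leaving out 143 and 101 cycling-like, 340 and 306 goblet-like, 125 and 33 colonocyte-like, 30 and 84 enteroendocrine-like and 239 and 211 T or NK-like cells (control first). The computation of ratios and intervals was tested on simulated data. Alternatives varied the cell filter, doublets, resolution, joint clustering, depth, scaling, pseudocount and background.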

Additional observations from a re-analysis of the deposited data

Results flagged for a closer look

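Atoh1 differed between the libraries in opposite directions in different classes. On the log2(CPM + 1) scale the Mettl14_cKO library over the control gave -0.94 in cycling-like and -2.65 in enteroendocrine-like cells, and 0.72 in colonocyte-like cells. The difference between the classes was not tested, since there was 1 library per genotype. In cells with goblet markers under 1% of UMIs the values were 1.09, 0.51 and 1.32 in the same order, so the opposite directions were not seen there. That filter was chosen after the data were seen and is not independent of Atoh1, so it cannot decide whether the directions differ. Of the cycling-like cells it kept 1166 control and 1121 Mettl14_cKO cells. The cycling-like value was 0.46 with the lenient cell filter, and the colonocyte-like value -0.23 with no doublets removed. Summed goblet markers were 26858 and 8637 CPM in cycling-like, 18973 and 3303 CPM in enteroendocrine-like, and 4157 and 3427 CPM in colonocyte-like cells, control first. The Atoh1 levels of colonocyte-like cells, 10.3 and 17.7 CPM, have intervals that overlap those of T or NK-like cells, 19.2 and 11.0 CPM. Unthinned shares of Mettl14_cKO cells with an Atoh1 UMI were 12.5% (9.82 to 15.7) and 2.54% (1.23 to 4.63), at median depths of 13336 and 1939 UMIs. Those of the control, 6.57% (5.4 to 7.89) and 3.93% (2.17 to 6.51), have overlapping intervals. The part of free RNA was not tested.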

How the results depend on the processing

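With 1 library per genotype no value has a replicate error, and the intervals cover counting only. Depth limits Notch2 in goblet-like and enteroendocrine-like cells, Nrarp and Notch1 in Mettl14_cKO enteroendocrine-like cells (3 and 4 UMIs) and every member in tuft-like cells. No paired analysis was possible because each genotype has 1 library. For the same reason no replicate was left out. Shared barcodes, left out as an alternative chosen after seeing the data, changed no direction of a called value.

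Of the 9 members, between 4 and 8 were at least 1.5-fold lower over 14 alternatives and at most 1 higher, the 1 being Atoh1 among cells with few goblet markers. The member median of -0.73 became -0.90 with a strict cell filter, -0.49 with a pseudocount of 5 CPM and -1.67 after subtracting the T or NK-like level. T or NK-like cells use Notch signalling themselves. For the receptors, Rbpj and the targets the subtracted level is therefore not a measure of free RNA. The ranges given next include that setting. Over the alternatives the mean log2 ratio of Nrarp ranged from -1.70 to -0.92, of Notch1 from -1.68 to -0.64, of Dll1 from -1.07 to -0.48, of Dll4 from -0.96 to -0.49 and of Hes1 from -1.66 to -0.50. The direction of these 5 means was kept throughout, as was that of Jag1 (-1.67 to -0.25). Rbpj (-1.98 to 0.30), Notch2 (-0.05 to 0.46) and Atoh1 (-1.09 to 0.72) were not of 1 direction. Of 630 alternative values for single members, by class and as means, 534 stayed within the counting spread of the reported value. A further 88 moved beyond it, and 8 turned the sign of a difference of at least 1.5-fold.

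Among differences of at least 1.5-fold, and by-cell ratios whose interval excluded 1, these turned. Notch1 in goblet-like cells was 0.038 with the strict filter and 0.0047 with each library clustered on its own. Notch2 in colonocyte-like cells was -0.0039 after thinning, which left 3 control and 1 Mettl14_cKO cells with a UMI. Atoh1 in cycling-like cells was 0.46 with the lenient cell filter and 1.09 with few goblet markers, where its enteroendocrine-like value was 0.51 and its 4-class mean 0.72. Atoh1 in colonocyte-like cells was -0.23 with no doublets removed. Jag1 in goblet-like over colonocyte-like cells of the Mettl14_cKO library was 0.11 (log2) with the lenient filter. The Jag1 ratio between Mettl14_cKO cycling-like cells with and without Atoh1 was 1.15 at a resolution of 2. Smaller differences between the libraries turned as well, by class: Jag1 in colonocyte-like cells under 8 of 14 alternatives and in cycling-like cells under 1, Rbpj under 2 each in cycling-like, colonocyte-like and enteroendocrine-like cells, Notch2 under 1 in cycling-like and 2 each in goblet-like and enteroendocrine-like cells, Atoh1 under 2 in goblet-like cells and Hes1 under 1 in cycling-like cells. The cause of each was not tested.

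The count of other Notch genes at least 1.5-fold lower, 1, became 0 with the lenient filter and at a resolution of 0.5, 2 with no doublets removed, with a mean over cells and with median-ratio scaling, 3 with a pseudocount of 0.25 CPM and 4 with each library clustered on its own. For the secretory fate genes the median of -0.15 became 0.084 with the lenient filter, -0.34 with separate clustering and -0.49 after thinning. Their count of 5 lower became 3 with the lenient filter, a resolution of 2, a mean over cells or a pseudocount of 5 CPM, and 2 after thinning. Their count of 4 higher became 2 with no doublets removed, after thinning and with a pseudocount of 5 CPM.

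The log2 ratio of Atoh1 in goblet-like over colonocyte-like cells stayed above 3 in both libraries. From 4.72 in the control it became 4.34 (lenient filter), 4.02 (no doublets removed), 5.08 and 4.92 (resolutions of 0.5 and 2), 4.92 (thinned), 4.31 (pseudocount of 5 CPM) and 5.13 (T or NK-like level subtracted). From 3.96 in the Mettl14_cKO library it became 4.39 (strict filter), 4.24 (no doublets removed), 4.24 (separate clustering), 3.35 (mean over cells) and 3.70 (pseudocount of 5 CPM). By cell, the control ratio of Hes1 with over without Atoh1 (0.902) was 0.767 with the lenient filter. That of Nrarp (0.588) was 0.691 with the lenient filter, 0.689 at a resolution of 0.5 and 0.726 with few goblet markers. That of Dll4 (2.76) was 1.90 after thinning and 5.97 with few goblet markers. In the Mettl14_cKO library Hes1 (0.721) was 0.631 with separate clustering and Nrarp (0.838) was 0.623 with few goblet markers.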

Other observations

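Some Notch pathway levels stood outside the named classes. Cluster 11, an unnamed epithelial cluster led by Lars2 and Ncl with the cycling markers Mki67 and Top2a among its 10 leading genes, held 635 control and 50 Mettl14_cKO cells. In the control it had 47.7 CPM (36.8 to 61) of Notch1 and 127 CPM (108 to 147) of Hes1, above the 16.6 and 79.8 CPM of cycling-like cells, with 32.1 CPM (23.2 to 43.2) of Atoh1. The Mettl14_cKO cells had 29.5 CPM (11.8 to 60.7) of Notch1 from 7 UMIs and 109 CPM (71.5 to 160.4) of Hes1 from 26 UMIs, and both intervals overlap those of the control. Its median depth was 1727 and 3215.5 UMIs. Cluster 9, unnamed too and led by Lars2 and Mki67, held 811 Mettl14_cKO cells at a median of 2748 UMIs. It had 18.8 CPM (14.3 to 24.1) of Notch1, below the control cells of cluster 11, and 111 CPM (99.5 to 123) of Hes1. The levels of cluster 11 were not particular to it, since control cells of the shallow cycling-like cluster 14 had 46 CPM of Notch1 and 109 CPM of Hes1.

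A pair of sparse genes were picked out after their values were seen. Hes5, a Notch target, had 29 UMIs in control and 3 in Mettl14_cKO cycling-like cells, a ratio of 0.157 (0.0306 to 0.506). Dll3 had 30 and 3 UMIs there, a ratio of 0.152 (0.0296 to 0.487). T or NK-like cells of both libraries had 0 UMIs of either gene.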
